A study of Mus musculus with 10 samples.

Results

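The comparison described here set the blood transcriptome of mice after 48 h of sleep deprivation (SD 48 h) against that of control mice (Con). Its members were the 2 libraries labelled SD at 48 h and Con at 0 h, of 10 libraries in the series. They were picked by label, with their low haemoglobin shares and other earlier results of these data known. Each library was made from RNA pooled over the blood of 3 C57/BL6J mice, with the tissue given as blood and the cell type as leukocyte. All mice, controls included, were bled retro-orbitally under pentobarbital anaesthesia into EDTA tubes. The sources used here give neither the way SD was imposed nor the hour of bleeding. The remaining libraries came from shorter SD and from a sleep restriction method reported earlier, labelled SASD. The SASD library of the same hour (SASD 48 h) is set beside SD 48 h where named. Both were divided by the same Con library, so each ratio over Con is given on its own and the difference between SD 48 h and SASD 48 h was not tested.

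Each side was a single pooled library, so no spread between mice could be measured and no gene was tested. Of the 32285 genes in the count table, 13646 were well counted, meaning a mean of at least 25 raw counts in the pair. A gene with few counts in 1 library could pass through the other alone. Its call is then no support for a difference. Ratios are SD 48 h over Con after trimmed-mean (TMM) scaling, and the intervals beside them are exact 95% intervals for counting error only. CPM, the usual depth-scaled unit, are counts set against the library size on that scale. A gene was called higher or lower at a 2-fold difference, which is a rule of size and not a test. The call used the log2 ratio with a prior count of 2, at least 1 or at most -1, whereas printed ratios carry no prior, so a printed ratio just past 2-fold can miss the call.

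Neutrophils, short-lived phagocytes, are made in the bone marrow and fill their granules in a fixed order. Primary granules, with myeloperoxidase and serine proteases, are packed at the promyelocyte stage. Secondary granules, with lactoferrin and cathelicidin, follow in myelocytes, and tertiary granules, with gelatinase, come last, so granule transcripts in blood mark young cells. CXCL12 acting on CXCR4 holds neutrophils in the marrow, while ligands of CXCR2 draw them out. Glucocorticoids released in stress raise blood neutrophils and lower blood lymphocytes.

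The libraries differed in depth and in their background. Total counts were 13927134 in SD 48 h, 24818986 in SASD 48 h and 27501393 in Con, and Ptprc, the pan-leukocyte marker CD45, had 28619, 63781 and 65175 counts in these libraries. Haemoglobin genes took 0.316% of the counts in SD 48 h (95% Clopper-Pearson interval 0.313 to 0.319), 0.275% in SASD 48 h and 0.727% in Con (0.724 to 0.730). At least 1 count fell on 27.5%, 61.7% and 77.1% of the 1134 olfactory receptor genes, whose products serve smell and which leukocytes are not known to need. Thinned to the depth of SD 48 h the share was still 66.5% in Con. The other 7 libraries stood apart from these 3, with haemoglobin shares of 3.57% to 6.96% and counts in 2.65% to 5.03% of olfactory receptor genes. The pair was chosen with its low haemoglobin shares known, so the haemoglobin contrast is no separate result. Platelet and red cell transcripts were present on both sides, so the RNA was not that of leukocytes alone. In bulk RNA, fewer cells of a type and less RNA per cell cannot be told apart.

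Among the well counted genes, 694 were at least 2-fold higher in SD 48 h than in Con (5.09%) and 1013 were at least 2-fold lower (7.42%). A list count close to these shares is no result about that list. Genes at least 4-fold higher numbered 154 (1.13%) and genes at least 4-fold lower 363 (2.66%). The median log2 ratio over all well counted genes was 0.10, with quartiles at -0.18 and 0.36. Higher genes made up 40.7% of the genes past 2-fold under TMM scaling, against 26.3% when libraries were scaled to their total counts, which moved the median of all genes by -0.26. The higher genes were found at every level of expression, whereas the lower ones were mostly genes of few counts. Of the 6554 genes whose Con level was at least 100 times the background set by olfactory receptors, 258 were higher and 29 lower. In SASD 48 h against the same Con, 247 of 14296 well counted genes were at least 2-fold higher (1.73%) and 1006 lower (7.04%).

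**Figure D1:**
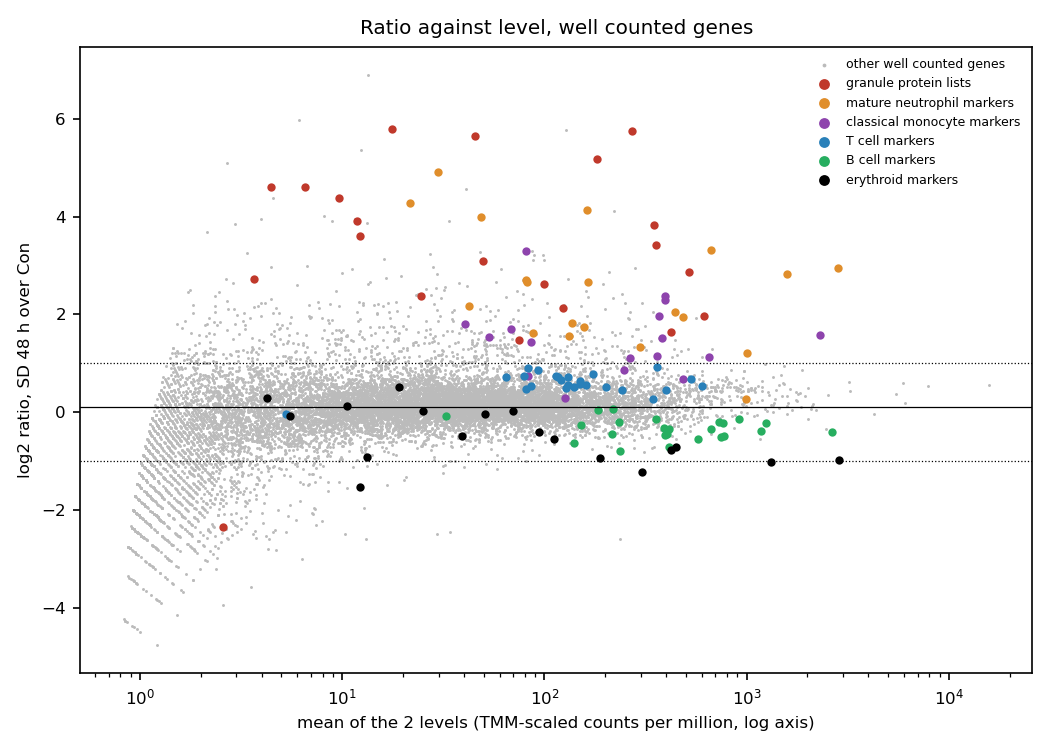
Log2 ratio of SD 48 h over Con against the mean level of both libraries (CPM, log axis) for the 13646 well counted genes, one point per gene, with 6 gene groups in colour. The solid line is the median of all genes (0.10) and dotted lines mark 2-fold; most granule genes lie at the top of the cloud, and the 1013 lower genes gather at low levels.

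Transcripts of neutrophil granule proteins stood far above Con in SD 48 h. Summed over all 6 primary granule genes, the level was 78.5 CPM in SD 48 h and 3.16 CPM in Con, a ratio of 24.9 (20.1 to 31.0). Of the 6, 4 were well counted and were higher, and since they passed the count minimum through SD 48 h alone their number is no support for a difference. Of 8 secondary granule genes 8 were well counted and 8 were higher, with a median log2 ratio of 3.87 beside 0.10 for all genes. Of 9 genes of tertiary granules and secretory vesicles 8 were higher and 1 lower, with a median of 2.12. In SASD 48 h the secondary and tertiary medians over Con were -0.01 and 0.54, and no primary granule gene was well counted.

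Mpo, myeloperoxidase, which makes hypochlorous acid from hydrogen peroxide, had 441 counts in SD 48 h and 16 in Con. These were 34.6 and 0.532 CPM, a ratio of 65.1 (39.6 to 115), while SASD 48 h stood at 0.745 of Con. The serine protease genes of the same granule followed. Prtn3, proteinase 3, had 235 counts in SD 48 h and 24 in Con (23.1, 15.2 to 36.8), and Elane, neutrophil elastase, 161 and 13 (29.2, 16.6 to 56.1). Ctsg, cathepsin G, had 110 counts in SD 48 h and 8 in Con (32.5, 15.9 to 77.1). The SASD 48 h ratios of these protease genes lay between 0.367 for Elane and 1.14 for Prtn3. The list's remaining genes were not well counted. Ms4a3, a tetraspan membrane protein of granulocyte and monocyte progenitors, had 39 counts in SD 48 h and 3 in Con (30.7, 9.76 to 155), and Prss57, a serine protease kept in neutrophils, had 14 and 31 (1.07, 0.524 to 2.06). In Con the 4 well counted primary granule genes stood at only 2.63 to 7.80 times the background.

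Secondary granule genes reached much higher counts. Ngp, neutrophilic granule protein, had 6812 counts in SD 48 h and 296 in Con, which were 535 and 9.84 CPM, a ratio of 54.3 (48.4 to 61.3). Ltf, the iron-binding lactoferrin, had 4496 and 290 counts (36.6, 32.5 to 41.4), and Camp, the precursor of the antimicrobial peptide cathelicidin, 1137 and 51 (52.6, 39.8 to 71.1). SASD 48 h stood at 0.846, 1.18 and 0.514 of Con for Ngp, Ltf and Camp. Lcn2, lipocalin 2, which withholds iron from bacteria by binding their siderophores, had 8322 counts in SD 48 h and 1381 in Con (14.2, 13.4 to 15.1). The remaining ratios were those of Itgb2l, a neutrophil integrin subunit, at 16 (11.6 to 22.7), Olfm4, olfactomedin 4, at 12.6 (9.42 to 17.2), and Cebpe, the transcription factor needed for secondary granules to form, at 7.17 (4.59 to 11.5) with SASD 48 h at 2.03 (1.24 to 3.40). Chil3, the chitinase-like protein Ym1, which monocytes also make, stood at 7.34 (7.08 to 7.62) and had the highest SASD 48 h ratio of the list, at 3.59.

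Among tertiary granule and vesicle genes the proteases led. Mmp8, neutrophil collagenase, had 8278 counts in SD 48 h and 1837 in Con (10.6, 10.1 to 11.2), and Mmp25, a membrane-bound metalloproteinase, 1140 and 314 (8.57, 7.56 to 9.74). Mmp9, gelatinase B, had the highest level of the list, with 982 CPM in SD 48 h and 252 CPM in Con (3.90, 3.79 to 4.02). Cd177, a neutrophil surface glycoprotein, stood at 6.13, Arg2, arginase 2, at 5.21, Adam8, a sheddase, at 4.36, Itgam, the CD11b integrin chain, at 3.14, and Slc11a1, a metal ion exporter of phagosomes, at 2.77. Alpl, the tissue-nonspecific alkaline phosphatase that marks secretory vesicles in human neutrophils, went the other way with 10 counts in SD 48 h and 132 in Con (0.179, 0.0838 to 0.339). Its Con level was 18.4 times the background, and SASD 48 h stood at 0.424 of Con.

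The stretch before the start of a granule gene is shown for 4 of these genes, since primary and secondary granule genes were high together and are textbook targets of PU.1 and of C/EBP factors. The sequences are from RefSeq (GRCm38.p6), plus strand in each case, 5′ to 3′, and each runs up to the base before the gene start in GENCODE M21. The RefSeq start lies further downstream, so distances counted from it are longer than those to the end of the printed stretch. They cover chr11:87793534-87793580 for Mpo, chr10:79886062-79886246 for Elane, chr9:110419558-110419746 for Ngp and chr9:111019042-111019270 for Ltf. Capitals mark the letters searched, GAGGAAGT for PU.1 in Mpo and Elane and TTGCNNAA or its other strand TTNNGCAA for C/EBP in Ngp and Ltf.
Mpo: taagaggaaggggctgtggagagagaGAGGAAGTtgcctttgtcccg
Elane: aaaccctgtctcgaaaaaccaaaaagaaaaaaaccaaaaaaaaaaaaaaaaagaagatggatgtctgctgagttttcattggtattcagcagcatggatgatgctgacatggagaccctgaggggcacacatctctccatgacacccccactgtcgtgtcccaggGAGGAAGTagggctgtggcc
Ngp: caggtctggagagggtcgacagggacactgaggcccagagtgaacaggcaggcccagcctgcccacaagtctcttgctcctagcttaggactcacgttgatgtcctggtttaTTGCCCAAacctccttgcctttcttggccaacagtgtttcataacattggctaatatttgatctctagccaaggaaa
Ltf: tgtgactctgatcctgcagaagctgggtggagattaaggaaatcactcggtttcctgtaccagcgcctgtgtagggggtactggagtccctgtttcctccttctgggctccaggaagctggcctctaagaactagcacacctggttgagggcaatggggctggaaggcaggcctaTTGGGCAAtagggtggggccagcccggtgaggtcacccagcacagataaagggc

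The matches lay 224 bases before the RefSeq start in Mpo, 85 in Elane, 138 in Ngp and 75 in Ltf. Each gene shown held a match, whereas some other members of both lists held neither motif. Both motifs were searched on both strands of the 250 bases before the start, and their letters can overlap by 1 base at most. The RefSeq table held 5 primary granule genes, of which 3 had the PU.1 letters (GAGGAAGT or ACTTCCTC) and 0 the C/EBP letters, and of 7 secondary granule genes 2 held the PU.1 and 3 the C/EBP letters. Over all 27018 genes of the table the shares were 2.44% for PU.1 and 9.56% for C/EBP, and over the 10352 well counted genes in it 2.74% and 7.54%. Among the 120 of 154 genes at least 4-fold higher that the table held, 11 had the PU.1 letters (9.17%) and 15 the C/EBP letters (12.5%). Of the 694 genes at least 2-fold higher it held 544, with PU.1 letters in 28 (5.15%) and C/EBP letters in 71 (13.1%). A match is a description of these letters and not a binding site.

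**Figure D2:**
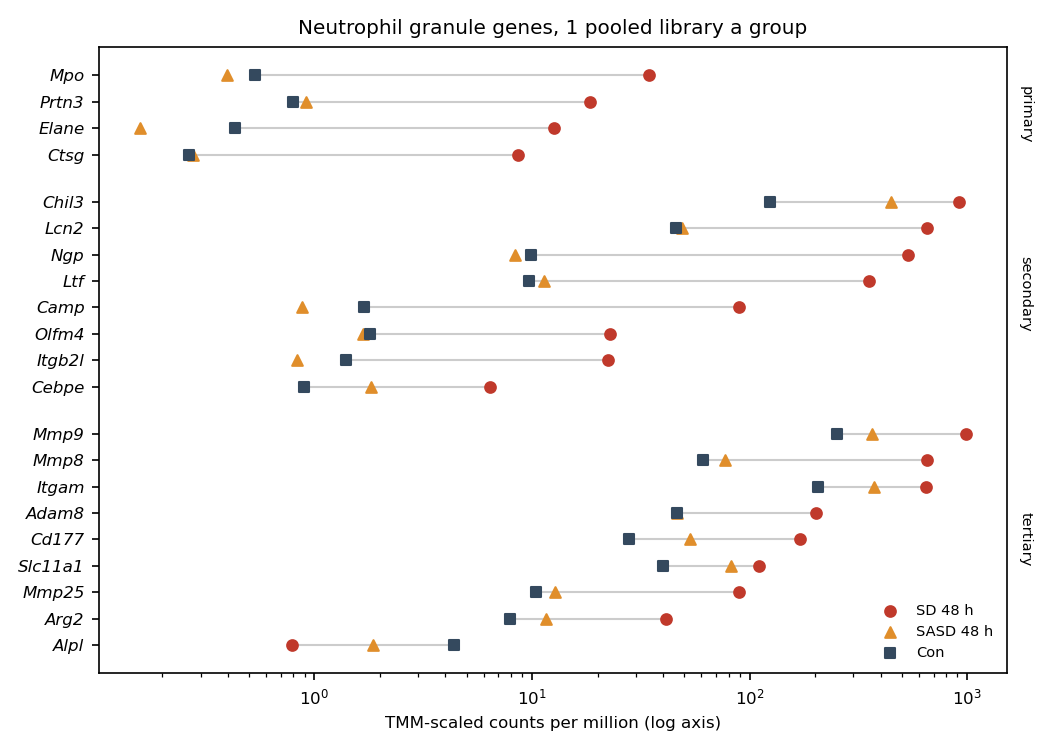
Level (CPM on the scale of the SD 48 h and Con pair, log axis) of each well counted granule gene, one point per library, with a grey line joining SD 48 h and Con. SD 48 h lies above both other libraries for every gene drawn except Alpl, which lies below both.

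The highest ratio among well counted genes was that of Prok2, prokineticin 2, a secreted peptide that myeloid cells release and that acts on G protein-coupled receptors. The gene (mm10, chromosome 6, 99711299 to 99726392) had 339 counts in SD 48 h and 4 in Con, which were 26.6 and 0.133 CPM, a ratio of 200.1 (77.4 to 739). SASD 48 h stood at 0.894 of Con, and the Con count was 1.17 times the background. Saa3, an acute phase serum amyloid gene, had 154 counts in SD 48 h and 3 in Con (121, 40.7 to 594). Upp1, uridine phosphorylase 1, had 309 and 15 (48.6, 29.0 to 88.0), with SASD 48 h at 2.94 of Con. Cxcl12, the chemokine that retains cells in the marrow, had 112 counts in SD 48 h and 10 in Con (26.4, 13.9 to 56.7), with SASD 48 h at 0.953. Con counts of Saa3 and Cxcl12 stood at 0.648 and 0.688 times the background, so the sizes of their ratios are uncertain.

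Markers of mature neutrophils were higher as well, though less far. Of 20 listed genes 20 were well counted and 19 were at least 2-fold higher, with a median log2 ratio of 2.42, against 0.18 in SASD 48 h. The list took 1.40% of all counts in SD 48 h and 0.393% in Con. S100a9 and S100a8, the subunits of the alarmin calprotectin, had 5019 and 2784 CPM in SD 48 h, against 653 and 394 CPM in Con. Their ratios were 7.68 (7.56 to 7.81) for S100a9 and 7.07 (6.92 to 7.22) for S100a8, while SASD 48 h stood at 1.25 and 1.13. Ly6g, the surface antigen used to identify mouse neutrophils, had 736 counts in SD 48 h and 55 in Con (31.6, 24.0 to 42.4). Acod1, which makes itaconate, had 526 and 61 (20.4, 15.6 to 27), and Retnlg, a resistin-like secreted protein, stood at 9.97. Csf3r, the receptor for granulocyte colony-stimulating factor (G-CSF), had 1408 CPM in SD 48 h and 610.0 CPM in Con (2.31, 2.26 to 2.36). The one marker short of 2-fold was Sorl1, a sorting receptor, with 1085 and 903 CPM (1.20, 1.18 to 1.23).

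Genes listed for neutrophil homing and adhesion, which held receptors and also Prok2 and the ligand Anxa1, were higher in 13 of 17 cases. Their median was 1.82. Prok2, the highest, passed the count minimum through SD 48 h alone and is no support for a difference. Anxa1, annexin A1, a ligand of formyl peptide receptors, had 498 CPM in SD 48 h and 64.7 CPM in Con (7.70, 7.32 to 8.10). Ltb4r1, the leukotriene B4 receptor, stood at 7.20, Cxcr1 and Cxcr2, receptors for neutrophil chemokines, at 6.50 and 3.83, and Fpr1 and Fpr2, receptors for bacterial formyl peptides, at 6.35 and 5.35. Cxcr4, the marrow retention receptor, differed little, with 553 CPM in SD 48 h and 418 CPM in Con (1.32, 1.29 to 1.36), and SASD 48 h stood at 0.630. Some adhesion molecules of high level were short of 2-fold. Itgb2, the common leukocyte integrin beta chain, had a ratio of 1.59, and Itgal, its LFA-1 partner, 1.24.

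Protease inhibitors of the stefin and WAP families, several of them made by neutrophils, were higher in 6 of 8 well counted members of 12 listed, with a median of 2.16. Wfdc17, a small WAP domain protein, had 3218 counts in SD 48 h and 137 in Con (55.5, 46.7 to 66.3), and was also higher in SASD 48 h, at 3.37. Stfa2, a stefin that blocks cysteine proteases, had 68 counts in SD 48 h and 2 in Con (80.3, 21.4 to 676). Stfa2 passed the count minimum through SD 48 h alone, so its place among the 6 is no support for a difference. Slpi, secretory leukocyte protease inhibitor, stood at 3.36. The low end of the list was Serpinb1a, an inhibitor of neutrophil proteases, at 0.942 (0.896 to 0.991). C-type lectins and Trem receptors, activating or inhibitory receptors of myeloid cells, were higher in 12 of 17 well counted members (median 1.27). Trem1 and Clec4e stood at 6.58 and 6.37 and Tyrobp, the adaptor through which many of them signal, at 2.40, whereas Treml2 and Mrc1, the mannose receptor, stood at 1.18 and 1.17. Of 6 well counted Fc gamma receptor genes 4 were higher, led by the high-affinity receptor Fcgr1 with 296 counts in SD 48 h and 111 in Con (6.30, 5.05 to 7.90). Fcgr1 stood at 6.71 of Con in SASD 48 h, while Fcgr3 stood at 2.96, with SASD 48 h at 1.69.

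Interleukin-1, a cytokine of fever and neutrophilia, acts through a receptor and a coreceptor and is held back by a decoy receptor and a soluble antagonist. Of 14 well counted genes of the family 6 were higher and 0 lower, with a median of 0.76. Il1b, interleukin-1 beta, had 6420 counts in SD 48 h and 3203 in Con, which were 504 and 107 CPM, a ratio of 4.73 (4.54 to 4.94), with SASD 48 h at 1.41. The decoy receptor went further. Il1r2 had 2259 counts in SD 48 h and 572 in Con (9.33, 8.50 to 10.2), whereas SASD 48 h stood at 0.744. Il1rap, the coreceptor, stood at 6.50, and Il18rap, the coreceptor of interleukin-18, at 2.03. The ligand Il1a and the interleukin-33 receptor Il1rl1 lay at the low end, at 0.572 (0.309 to 1.0) and 0.536 (0.339 to 0.819), from 16 and 27 counts in SD 48 h, against 66 and 119 in Con.

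Other cytokine and chemokine genes were mixed. Of 32 listed, 21 were well counted, with 7 higher and 2 lower, beside 5.09% higher and 7.42% lower among all well counted genes. Their median was 0.22, and it was -0.04 with total counts as scale. Cxcl2, a ligand of CXCR2, had 96 counts in SD 48 h, 1 in SASD 48 h and 12 in Con (18.9, 10.3 to 37.8). Il27, a subunit of interleukin-27, had 34 counts in SD 48 h and 20 in Con (4.01, 2.25 to 7.36), and Ccl6, a myeloid chemokine, had 549 and 192 CPM (2.86). The lower genes were Ccl3, a macrophage inflammatory protein, with 39 counts in SD 48 h and 208 in Con (0.443, 0.306 to 0.626), and Il10, an anti-inflammatory cytokine, with 8 and 81 (0.233, 0.0974 to 0.482). Cxcl2 and Il27 passed the count minimum through SD 48 h alone, and Il10 through Con alone. Their calls are no support for a difference. Il6, which acts in fever and the acute phase, was not well counted, with 0 counts in SD 48 h, 11 in SASD 48 h and 7 in Con, and Tnf had 63 and 178 counts in SD 48 h and Con (0.836, 0.617 to 1.12). Cytokine receptor genes were higher in 8 of 23 well counted members and lower in 0 (median 0.70). Csf2rb2 and Csf2rb, beta chains for interleukin-3 and GM-CSF that may share reads, led at 9.82 and 5.07. Il17ra, the interleukin-17 receptor, stood at 1.46, and Il2rg, the common gamma chain, at 1.07.

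Sensors of bacteria led by Cd14 were higher in part, while NF-kB response genes lay near Con. Cd14, the coreceptor for bacterial lipopolysaccharide, had 1001 counts in SD 48 h and 97 in Con (24.4, 19.8 to 30.3), with SASD 48 h at 1.98. Of 14 well counted genes in its list 6 were higher, with a median of 0.83. Tlr2, the receptor for bacterial lipopeptides, stood at 4.20 and Tlr13, which senses bacterial ribosomal RNA, at 2.95, whereas Tlr9, the DNA sensor that B cells also use, stood at 0.906 (0.835 to 0.982). Inflammasome genes were higher in 4 of 14 (median 0.31), with Mefv, pyrin, at 6.05, Nlrp3 at 2.63 and Nlrc4 at 0.717. In the NF-kB list 1 of 23 genes was higher and 0 lower, and the median was 0.11, which became -0.15 with total counts as scale. Ier3, an early response gene that NF-kB induces, stood at 3.76, and the subunits Nfkb2 and Rel at 0.911 and 0.869.

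Genes of classical monocytes, the blood precursors of many tissue macrophages, were higher in both libraries of 48 h. In SD 48 h 13 of 17 were at least 2-fold higher, with a median of 1.51, and the median in SASD 48 h was 1.18. Vcan, the proteoglycan versican, had 1882 counts in SD 48 h and 450 in Con (9.88, 8.91 to 11.0), with SASD 48 h at 2.28. Lyz2, lysozyme, which neutrophils also make, had 3443 CPM in SD 48 h and 1154 CPM in Con (2.98, 2.94 to 3.02), with SASD 48 h at 2.74. Hp, haptoglobin, stood at 5.22 of Con, against 1.62 for SASD 48 h. Ccr2, the receptor that lets monocytes leave the marrow, and Csf1r, the receptor for their survival factor, stood at 3.89 and 2.15 in SD 48 h, and at 3.14 and 2.44 in SASD 48 h. Nonclassical monocyte genes were higher in 3 of 16, with a median of 0.34. Fcgr4 and Cd300ld, at 2.46 and 2.96, are also found on neutrophils, whereas Fabp4 and Cd36, lipid carriers, stood at 0.646 and 0.671.

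Interferon-stimulated genes were likewise above Con in both libraries. In SD 48 h 7 of 30 well counted members were at least 2-fold higher and 0 lower, with a median of 0.68, and the median in SASD 48 h was 0.67. Slfn4, a schlafen of myeloid cells, had 5185 counts in SD 48 h and 2286 in Con (5.36, 5.10 to 5.63), with SASD 48 h at 2.39. Oasl2, an oligoadenylate synthetase-like gene, stood at 3.38, with SASD 48 h at 2.51. Rsad2, viperin, an antiviral enzyme, stood at 0.808 (0.759 to 0.860).

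B and T cell marker genes differed by less than 2-fold throughout, and they lay on opposite sides of Con. Of 24 B cell genes 2 were above and 22 below a log2 ratio of 0 (median -0.34), none past 2-fold, and with total counts as scale the median was -0.60. Their share of all counts was 1.13% in SD 48 h and 1.72% in Con. Ighm, the heavy chain of IgM, had 2274 CPM in SD 48 h and 3023 CPM in Con (0.752, 0.742 to 0.762). The lowest were Cr2, complement receptor 2, with 173 and 298 CPM (0.580, 0.553 to 0.607), and Fcer2a, the low-affinity IgE receptor CD23, at 0.615. In SASD 48 h these stood at 1.19 and 1.13, and the B cell median was 0.04. Cxcr5, the receptor that leads B cells to follicles, stood at 1.05.

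T cell genes were above 0 in 24 of 25 cases with a median of 0.59, which was 0.33 with total counts as scale, and none passed 2-fold. Ccr7, which brings naive T cells into lymph nodes, had 469.8 CPM in SD 48 h and 247 CPM in Con (1.90, 1.83 to 1.96), and Cd6, a T cell surface regulator, 108 and 57.4 CPM (1.88, 1.75 to 2.02). Tcf7, a transcription factor of naive and memory T cells, stood at 1.61, and Foxp3, the factor of regulatory T cells, at 0.974 (0.720 to 1.31). The T cell median of SASD 48 h was 0.02. Variable genes of the antigen receptors kept to the same sides. Of 25 well counted T cell receptor variable genes 24 were above 0 and 2 were at least 2-fold higher (median 0.52), and of 163 immunoglobulin variable genes 26 were above 0 and 5 were at least 2-fold lower (median -0.27). Among all well counted genes 5.09% were higher and 7.42% lower, so these calls past 2-fold are no result about the variable genes.

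NK and cytotoxic genes had 0 of 18 members past 2-fold, with a median of 0.06 that became -0.20 with total counts as scale. Gzmb, granzyme B, stood at 1.47, whereas Klra4 and Klra8, receptors of the Ly49 family, stood at 0.606 and 0.620. GIMAP genes, small GTPases that keep lymphocytes alive, had 0 of 8 past 2-fold and 4 above 0, with Gimap7 at 1.28 and Gimap8 at 0.819. MHC class II genes, which B cells and other antigen-presenting cells use, had 0 of 11 members past 2-fold (median -0.03), and Cd74, the invariant chain, had 4239 CPM in SD 48 h and 4329 CPM in Con (0.979, 0.969 to 0.989). MHC class I genes stood at a median of 0.25, or -0.01 with total counts as scale, with H2-D1 at 1.41. Dendritic cell genes had a median of 0.04, or -0.21 with total counts, and 0 of 15 past 2-fold, Siglech, a marker of plasmacytoid cells, standing at 1.86. Plasma cell genes had 3 of 13 lower, namely Ighg2c, Derl3 and Igha. Igha, the IgA heavy chain, had 425 counts in SD 48 h and 2104 in Con (0.477, 0.429 to 0.530), with SASD 48 h at 0.468. Of 9 well counted eosinophil and basophil genes 1 was higher, Siglecf at 2.64, and Il5ra, the interleukin-5 receptor, stood at 0.529 (0.460 to 0.608).

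Platelet genes did not follow the neutrophil genes. None of 19 well counted members passed 2-fold in SD 48 h (0 higher, 0 lower), and the median was 0.06, or -0.20 with total counts as scale, whereas it was -0.81 in SASD 48 h. Ppbp, platelet basic protein, had 1112 CPM in SD 48 h and 1149 CPM in Con (0.968, 0.949 to 0.987), and Pf4, platelet factor 4, 466 and 349.5 CPM (1.33, 1.29 to 1.38). SASD 48 h stood at 0.563 and 0.535 of Con for these. Of 18 well counted erythroid genes 3 were lower, 0 higher and 5 above a log2 ratio of 0, beside 7.42% lower among all genes, and the median was -0.51. In SASD 48 h 12 of 18 were lower and the median was -1.29. Hbb-bs, a beta globin, had 1929 CPM in SD 48 h and 3792 CPM in Con (0.509, 0.502 to 0.516), and Hba-a1, an alpha globin, 872 and 1767 CPM (0.494, 0.484 to 0.504). Alas2, which starts haem synthesis in red cell precursors, had 181 and 424 CPM (0.428, 0.409 to 0.447), and Trim10, a gene of late erythroid cells, stood at 0.346 (0.270 to 0.438). Gata1, a factor of red cell and megakaryocyte precursors, stood at 1.43.

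**Figure D3:**
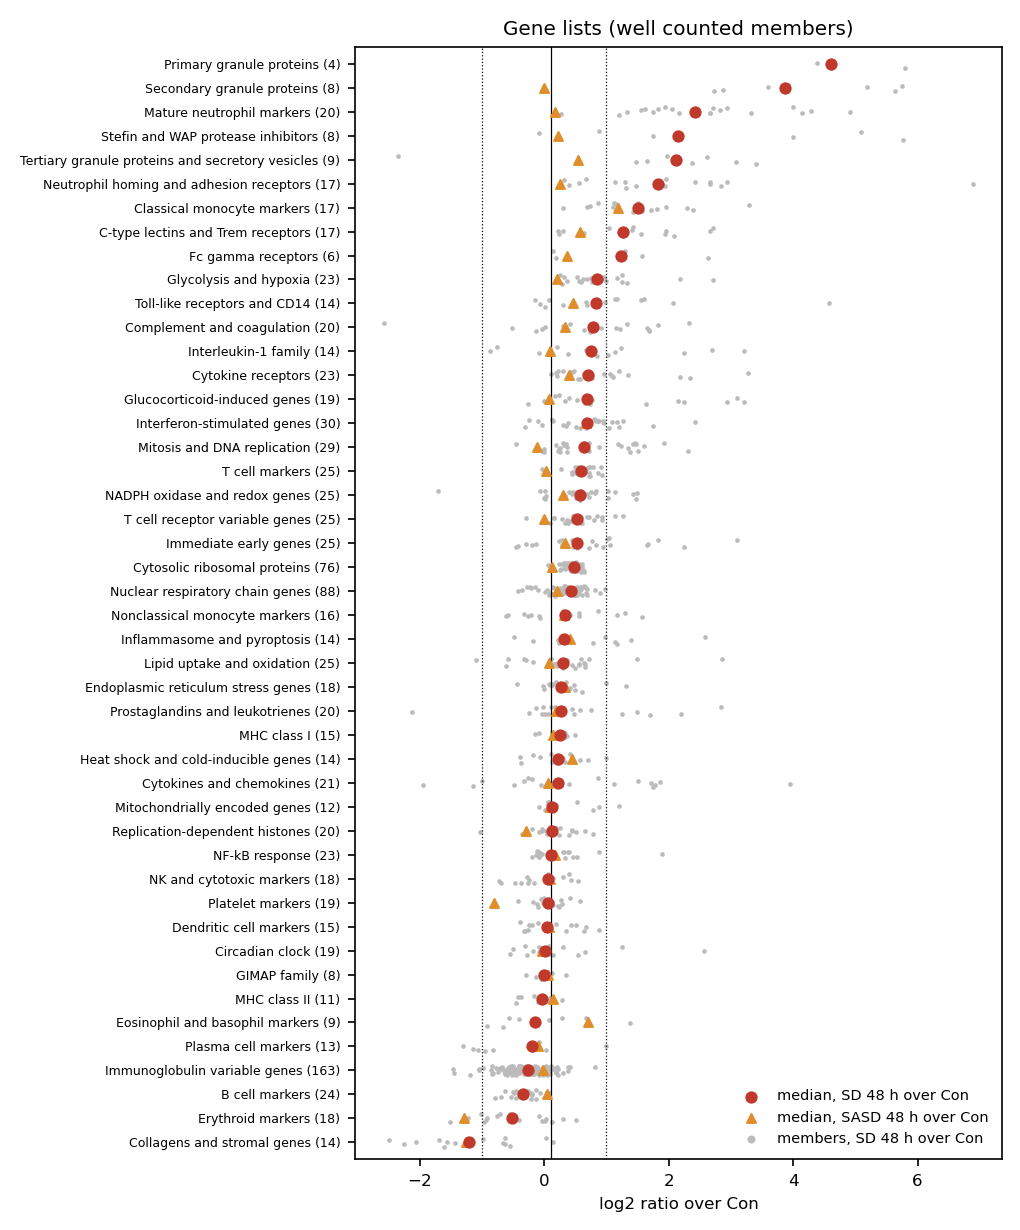
Median log2 ratio over Con of each gene list in SD 48 h (circles) and SASD 48 h (triangles), with the well counted members in SD 48 h as grey points and their number in brackets; the solid line is the median of all genes (0.10) and dotted lines mark 2-fold. The granule and mature neutrophil lists lie far right in SD 48 h, the primary granule genes having passed the count minimum through SD 48 h alone, with SASD 48 h medians between -0.01 and 0.54 where drawn, while the classical monocyte and interferon lists lie right of the line in both.

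Genes that glucocorticoid hormone induces in leukocytes were higher in 6 of 19 well counted members and lower in 0, with a median of 0.68, against 0.08 in SASD 48 h. The 6 were Il1r2, Fos, Anxa1, Dusp1, Tgm2 and Cebpd, and Il1r2, Anxa1 and Fos are also abundant in, or induced in, neutrophils. Dusp1, a phosphatase that switches off MAP kinases, had 412 CPM in SD 48 h and 87.3 CPM in Con (4.72, 4.51 to 4.95), with SASD 48 h at 0.868. Tsc22d3, the glucocorticoid-induced leucine zipper GILZ, had 13868 counts in SD 48 h and 20718 in Con (1.58, 1.55 to 1.61), whereas SASD 48 h stood at 0.604. Fkbp5, which damps the glucocorticoid receptor, stood at 1.67, whereas SASD 48 h stood at 0.554. Zbtb16 and Hif3a, which respond in many tissues, stood at 0.996 and 0.826. Mature neutrophil genes were higher in the same library, with the median of 2.42 given above, and their part in this list was not tested.

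The labelled times of SD 48 h and Con lie a whole number of days apart, and most clock genes differed little. Of 19 well counted clock genes 2 were higher and 0 lower, and the median was 0.02, or -0.24 with total counts as scale. Nfil3, a repressor of the clock output that also acts in myeloid cells, had 704 counts in SD 48 h and 279 in Con (5.96, 5.18 to 6.87), with SASD 48 h at 1.98. Per2, a core repressor of the clock, had 343 and 340 counts, which were 26.9 and 11.3 CPM (2.38, 2.04 to 2.78), with SASD 48 h at 1.03. Per1, which glucocorticoids also induce, stood at 1.58, with SASD 48 h at 0.906. Clock and Arntl, which drive the cycle, stood at 0.942 (0.851 to 1.04) and 1.01 (0.892 to 1.15), and Nr1d1, a repressor of Arntl, at 0.996 (0.611 to 1.58).

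Immediate early genes, switched on within minutes of a stimulus, were higher in 8 of 25 (median 0.52). Fos, a subunit of the AP-1 factor, had 2265 counts in SD 48 h and 620 in Con (8.63, 7.89 to 9.44), with SASD 48 h at 2.19. The early growth response and orphan receptor genes Egr3 and Nr4a2 stood at 0.748 (0.638 to 0.873) and 0.717 (0.39 to 1.25). Heat shock and cold-inducible genes had 0 of 14 called, with a median of 0.22, or -0.04 with total counts. Hspa1b, an inducible HSP70 chaperone, had 35 counts in SD 48 h and 40 in Con, a ratio of 2.07 (1.27 to 3.34) whose log2 ratio with the prior count just missed the call, and SASD 48 h stood at 3.28. Rbm3 and Cirbp, RNA-binding proteins induced by cold, stood at 1.62 and 1.49, and Hspa8, a constitutive chaperone, at 1.33. Of 18 genes of endoplasmic reticulum stress 1 was higher, close to the 5.09% among all well counted genes. It was Asns, asparagine synthetase, from 27 counts in SD 48 h and 24 in Con (2.66, 1.48 to 4.81).

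**Figure D4:**
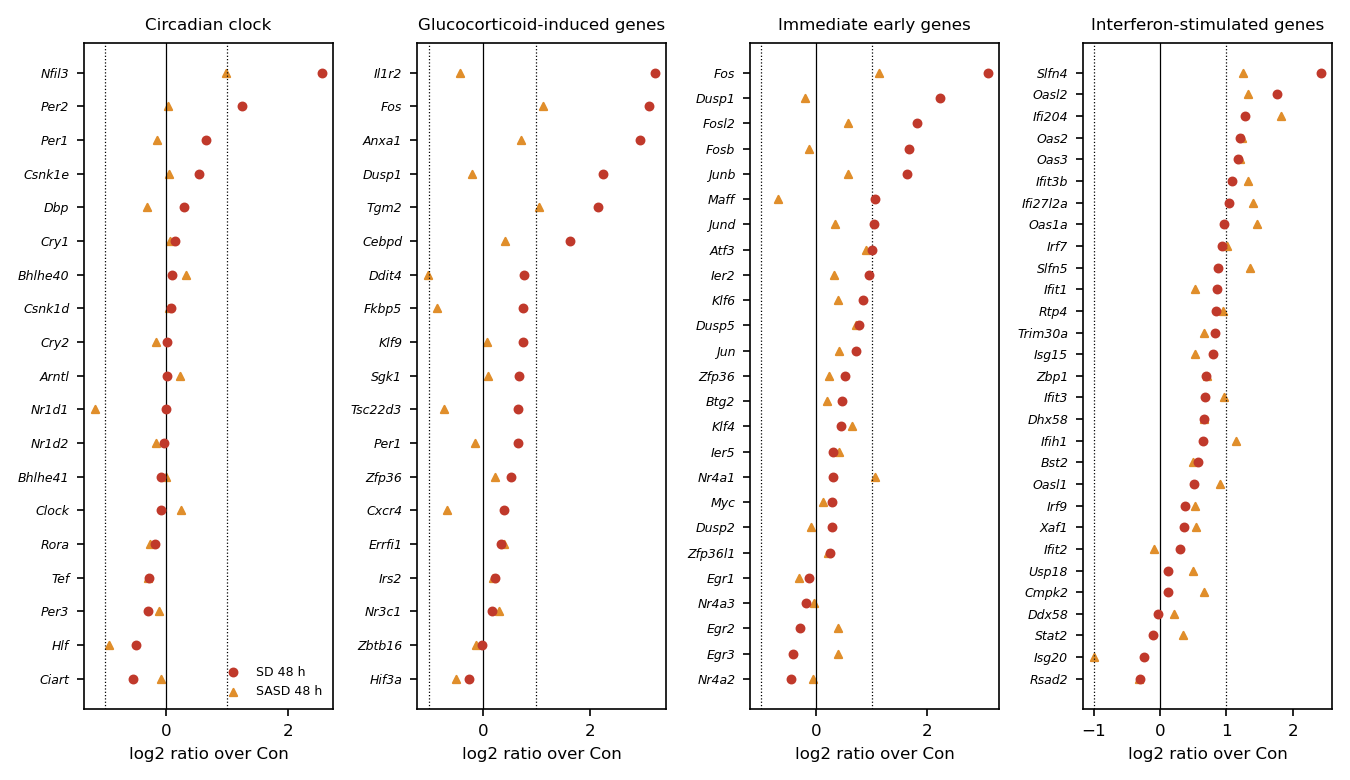
Log2 ratio over Con of well counted clock, glucocorticoid-induced, immediate early and interferon-stimulated genes in SD 48 h (circles) and SASD 48 h (triangles), one point per gene and library, with dotted lines at 2-fold. Il1r2, Dusp1, Nfil3 and Per2 lie right of 2-fold in SD 48 h, and most interferon genes lie right of 0 in both.

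Neutrophils rely on glycolysis for energy. Of 23 well counted members of 24 genes listed for glycolysis and hypoxia 7 were at least 2-fold higher and 0 lower, with a median of 0.85, or 0.59 with total counts as scale. Slc16a3, the lactate exporter, had 228 CPM in SD 48 h and 34.5 CPM in Con (6.59, 6.13 to 7.08). Egln3, an oxygen-sensing hydroxylase, stood at 4.57, and Pkm, pyruvate kinase, the most abundant member, at 1.80. Hk1, the general hexokinase, stood at 1.19. Of 25 genes of the phagocyte oxidase and of redox defence 6 were higher and 1 lower (median 0.57). Prdx5, a peroxiredoxin, and Gsr, glutathione reductase, led at 2.82 and 2.77, and Nqo1, a quinone reductase, was the lower one, with 10 counts in SD 48 h and 83 in Con (0.284, 0.132 to 0.550) and SASD 48 h at 0.244. Cybb, the catalytic subunit of the oxidase, stood at 1.79.

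Lipid mediator genes were higher in 5 of 20 and lower in 1, with a median of 0.26. Leukotriene genes of myeloid cells led: besides Ltb4r1, Cysltr1, a receptor of cysteinyl leukotrienes, stood at 4.72 and Alox5ap, which hands arachidonic acid to 5-lipoxygenase, at 3.24. Lta4h, which completes leukotriene B4, stood at 1.68, and Hpgds, a prostaglandin D synthase, at 0.842 (0.574 to 1.21). The lower gene was Slco2a1, the prostaglandin uptake carrier, with 5 counts in SD 48 h and 61 in Con (0.194, 0.0607 to 0.477), at 2.53 times the background in Con. For lipid uptake and oxidation 2 of 25 were higher and 1 lower (median 0.31), beside 5.09% higher and 7.42% lower among all genes. Fabp5, a fatty acid carrier, had 225 counts in SD 48 h and 71 in Con (7.48, 5.71 to 9.91), and Plin2, a lipid droplet coat protein, stood at 2.80. Lpl, lipoprotein lipase, had 107 and 545 counts (0.464, 0.373 to 0.571), whereas SASD 48 h stood at 1.68.

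Complement and coagulation genes were higher in 8 of 20 and lower in 1 (median 0.79). C5ar1, the receptor for the attractant C5a, stood at 3.54. F3, tissue factor, which starts coagulation, was lower, with 9 counts in SD 48 h and 140 in Con (0.152, 0.0680 to 0.297), and SASD 48 h stood at 0.111. Genes of mitosis and DNA replication were higher in 11 of 29 (median 0.64), against a median of -0.11 in SASD 48 h. Ccna2, cyclin A2, had 95 counts in SD 48 h and 43 in Con (5.22, 3.60 to 7.66), with SASD 48 h at 0.554, and Hmgb2, a chromatin protein of dividing cells, stood at 2.53. Pcna, the sliding clamp of replication, stood at 1.28 and Tk1, thymidine kinase, at 0.725. In Con 6 of the 29 were under 10 times the background. Of 67 histone genes expressed in S phase 20 were well counted, with 0 higher, 1 lower and a median of 0.13, or -0.12 with total counts as scale. Hist1h1c, a linker histone and the most abundant, stood at 1.42, and the lower one, Hist2h4, had 13 counts in SD 48 h and 66 in Con (0.465, 0.235 to 0.851). Ribosomal protein genes were above 0 in 76 of 76 cases without reaching 2-fold (median 0.48, or 0.22 with total counts as scale), and nuclear respiratory chain genes had a median of 0.42 with 0 of 88 past 2-fold. Mitochondrially encoded genes had a median of 0.13, or -0.13 with total counts, and mt-Co1, a cytochrome oxidase subunit, stood at 1.14.

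Some of the genes far above Con lay side by side. Of the 154 genes at least 4-fold higher, 45 (29.2%) had another such gene within 200 kb, in 19 clusters, whereas 809 of 13642 well counted genes with a position (5.93%) lay that near to such a gene. Some of the 45, among them Prok2, Gpr27, Stfa2 and Elane, passed the count minimum through SD 48 h alone. The shares were not counted without such genes, so they are a description and no support for a tendency to cluster. On chromosome 16 (mm10, 36156811 to 36408457) the stefin genes Stfa2l1, Stfa1 and Stfa2 stood at 4.52, 4.66 and 80.3, with Gm5483 among them at 5.76. A stretch of chromosome 17 (48125605 to 48258841) held Trem1 at 6.58 and Trem3 at 4.26 beside 2 genes with clone names, 9830107B12Rik at 15.3 and A530064D06Rik at 9.63. The S100a6, S100a8 and S100a9 genes on chromosome 3 (90612882 to 90695721) stood at 4.50, 7.07 and 7.68. The Ifitm2, Ifitm1 and Ifitm6 genes on chromosome 7 (140954837 to 141017924), which encode interferon-induced membrane proteins, stood at 7.30, 17.3 and 9.33, and at 1.85, 1.3 and 2.39 in SASD 48 h. Prok2 lay beside Gpr27, an orphan receptor gene, which had 52 counts in SD 48 h and 7 in Con (17.5, 7.94 to 45.8). Members of such families may share reads.

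Genes lower in SD 48 h needed a background check, because genes that blood does not use were counted less often in SD 48 h than in Con. Summed over the 1134 olfactory receptor genes, counts were 712 in SD 48 h, 3073 in SASD 48 h and 6503 in Con, a ratio of 0.259 for SD 48 h over Con (0.239 to 0.279). Keratin-associated protein and defensin genes had 16 counts in SD 48 h and 217 in Con (0.174, 0.0978 to 0.289), and vomeronasal and taste receptor genes a ratio of 0.424. A lower gene passed the check if its Con count was at least 10 times that expected from olfactory receptors per kilobase of exon and its background-subtracted ratio was still at most 0.5. Of the 1013 lower genes 452 passed, which is 3.31% of the well counted genes.

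The share of lower genes dropped steeply as genes stood further above the background in Con. It was 57.4% of 176 genes under 3 times the background, 36.6% of 1243 between 3 and 10, and 16% of 2102 between 10 and 30. Beyond these it was 2.55% of 3567 genes between 30 and 100 times, and 0.442% of 6554 from 100 times upward. The share of higher genes ran from 11.4% in the first of these bands to 5.27% between 30 and 100 times and 3.94% from 100 times upward. By gene type, 15.5% of 361 antisense and 15.5% of 341 lincRNA genes were lower, against 6.87% of 12441 protein coding genes.

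**Figure D5:**
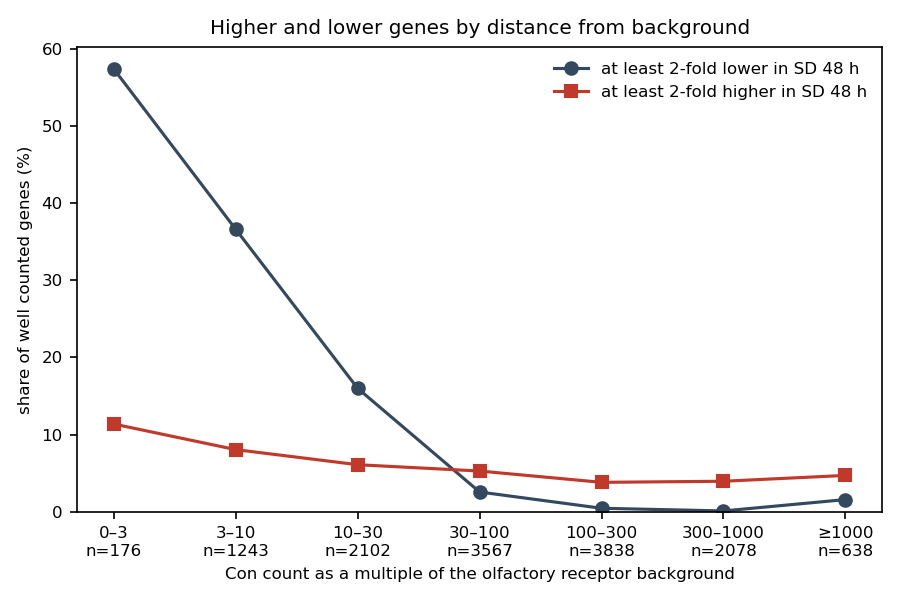
Percent of well counted genes at least 2-fold lower and at least 2-fold higher in SD 48 h than in Con, by how many times the Con count exceeded the olfactory receptor background, with n genes in each band. The lower share drops from 57.4% in the first band to 0.0962% between 300 and 1000 times and is 1.57% at 1000 times or more, while the higher share stays between 3.80% and 11.4%.

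The 10 lowest ratios belonged to genes known mainly from tissues other than blood, apart from Adam28. All 10 passed the count minimum through Con alone, so their calls are no support for a difference. Adam28, a metalloproteinase first described in lymphocytes, had 0 counts in SD 48 h and 73 in Con, at least 10.3-fold lower against a floor of 3 counts, and Bnc2, a zinc finger factor of connective tissue, 0 and 60, at least 8.47-fold lower. Abcg5, a sterol exporter of liver and gut, had 0 counts in SD 48 h and 58 in Con, at least 8.19-fold lower. Alox12e, Lama4, Myoc, Kazn, Wnt5a and Dnah7b had 0 counts in SD 48 h and 50 to 56 in Con, and Gxylt2 had 1 and 89 (0.0265, 0.000664 to 0.152). Of these 10, Abcg5, Alox12e and Myoc passed the check. The 10 lowest genes that passed it also held Krt2, Ces4a, Gm4756, AU018091, Vil1, Kctd19 and Slc22a13, all with 1 to 5 counts in SD 48 h and 65 to 131 in Con. These too passed the count minimum through Con alone and are no support for a difference. Vil1, villin, a protein of the gut brush border, had 5 and 131 (0.0901, 0.0288 to 0.216). The Con levels of the 10 lay between 10.9 and 20.8 times the background, just above the limit of the check. Collagens and stromal genes, which mark connective tissue and vessel wall, were lower in 7 of 14 well counted members (median -1.21), and 7 of 7 passed the check. Among all well counted genes 7.42% were lower and 3.31% passed the check. In SASD 48 h 10 of 15 well counted members of this list were lower, with a median of -1.26. Col1a2, a chain of type I collagen, had 39 counts in SD 48 h and 529 in Con (0.174, 0.122 to 0.241), with SASD 48 h at 0.232, while Pecam1 and Vwf, vessel wall genes that platelets share, stood at 1.11 and 1.02.

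The 29 genes that were lower and at least 100 times above the background in Con, an additional limit chosen after the data had been seen, were of these kinds. The lowest were 5 predicted genes, Gm10800, Gm21738, Gm10801, Gm10718 and Gm10722, at 0.167 to 0.278. Gm10800 had 861 counts in SD 48 h, 6214 in SASD 48 h and 12181 in Con (0.167, 0.156 to 0.179). Red cell genes in the set were Trim10, Alas2 and Hba-a1. Antigen receptor segments and Igha formed another kind, such as Igkj5, a kappa joining segment, with 254 counts in SD 48 h and 1294 in Con (0.463, 0.404 to 0.531). Other protein coding genes were Ccn3, a matricellular protein, with 111 counts in SD 48 h and 736 in Con (0.356, 0.289 to 0.435), Mgp, matrix Gla protein, with 53 and 303 (0.413, 0.302 to 0.554), Cdr2, with 321 and 1655 (0.458, 0.405 to 0.516), and Ccl3. Ccn3, Mgp and Cdr2 were also low in SASD 48 h, at 0.245, 0.338 and 0.39, whereas Ccl3 stood at 0.808. The last 7 were non-coding genes, most of them antisense, led by Gm45515 with 66 counts in SD 48 h and 421 in Con (0.370).

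At the 2-fold limit itself, the gene just inside was Ldha, lactate dehydrogenase A, with 4399 counts in SD 48 h and 5192 in Con, and the gene just outside was Abcb9, a lysosomal peptide transporter, with 178 and 209. Without the prior count their ratios were 2.0006 and 2.01.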

How the data were processed

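Per the labels' protocols, RNA was extracted from whole blood with the QIAamp RNA Blood kit and libraries were made with the TruSeq kit, version 2. Per the submitters' processing notes, reads were trimmed with Trimmomatic 0.39 and aligned to mm10 with STAR 2.7.9a. The authors deposited raw counts of read pairs over exons for 32285 genes, made with featureCounts 2.0.3 per the file headers. No strand option was set and reads mapping to several places were not counted, so antisense and overlapping genes are uncertain, and so are genes with close copies (Hba-a1 and Hba-a2, Hbb-bs and Hbb-bt, Csf2rb2 and Csf2rb, the Ifitm, Wfdc and Stfa genes, the Gm10800 group). Positions and exon lengths came from GENCODE M21, which held 32235 of the gene IDs and may differ from the authors' annotation.

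From the counts, TMM factors of the pair were computed (edgeR 4.0.16, R 4.3.3). Log2 ratios used a prior count of 2, printed ratios none, and genes needed a mean count of at least 25. Intervals are exact conditional binomial (Clopper-Pearson) ones at 95% (scipy 1.17.1, Python 3.11.15) and cover counting error only. With 1 library a group there was no test. The steps were tested on simulated data.

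The comparison, the gene lists and the rules were chosen with earlier results of these data known. Of 1517 entries in 46 gene lists 1515 matched the table, and Il36g and Clec7a were not analysed here. Genes named are the 15 highest and 10 lowest log2 ratios, the 10 lowest past the background check, in each list the 2 highest, the 2 lowest and the 2 of highest level, all granule list members and the haemoglobin genes; some of these are not reported here. Other genes in the text were chosen after their values were seen: Retnlg, Cxcr1, Cxcr2, Fpr1, Fpr2, Il6, Tnf, Ccr2, Csf1r, Igha, Tgm2, Cebpd, Fkbp5, Clock, Arntl, Nr1d1, Cirbp, those of the neighbour clusters, those lower at 100 times background (Gm45515 among them), and Ldha and Abcb9. DESeq2 1.42.0 size factors, total counts and other alternatives are given in the closing section.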

Additional observations from a re-analysis of the deposited data

How the results depend on the processing

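With 1 library a side, mouse-to-mouse spread, pooling and library preparation cannot be told apart from sleep deprivation, and intervals cover counting error only. No paired analysis was possible because each group has a single library, and no replicate could be left out. Genes at least 2-fold higher, 694 in all, numbered 456 with total counts as scale, 1099 with no count minimum and 715 with DESeq2 size factors. Lower genes, 1013 in all, numbered 87 at a mean count of at least 100, 7912 with no count minimum and 436 with Con thinned to the depth of SD 48 h. Lower genes past the background check, 452 here, numbered 75 at a mean count of 100, 1085 with no count minimum, 270 with Con thinned, 119 at 30 times background, 883 at 3 times, and 99 with the 95th percentile of olfactory receptor genes as background. They numbered 29 at 100 times background and 236 with keratin-associated protein and defensin genes as background, both alternatives chosen after seeing the data. The median log2 ratio of the 4 well counted primary granule genes, 4.60 here, was 4.36 with total counts as scale and 4.38 with totals that leave out granule, mature neutrophil and haemoglobin genes. Over all alternatives, 371 list medians moved by less than their interval and 43 by more. That interval reflects the spread among the members of a list, in short lists their full range, and not counting error. It is wide in many lists, so this is a loose yardstick. Of the ratios of named genes, 626 moved by less than their counting interval and 200 by more. Over 5 scalings, 28 list medians stayed above 0, 7 below it, and 11 changed sign. No called value changed sign (0). The cause of these differences was not tested.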
